A study of Caenorhabditis elegans with 2 samples.

Results

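Peaks of the nuclear receptor NHR-6 were described at 9 of 19973 protein-coding genes of Caenorhabditis elegans, namely puf-9, lin-14, lin-28, lin-29, lin-41, lin-42, lin-46, hbl-1 and alg-1, which act in the timing of the larva-to-adult switch. The genes were listed by name and were chosen by their place in this pathway and by the signal of their peaks in the same lists, so the peaks at them are given as a description with no test. The data are peak lists from chromatin immunoprecipitation and sequencing (ChIP-seq) of eGFP-tagged NHR-6, the worm receptor of the NR4A family, in whole L4 larvae with both sexes pooled. All samples form 1 group of 2 biological replicates of strain OP90, which carries the mutation unc-119(ed3) III and the integrated transgene wgIs90 that holds the tagged receptor, and the labels give no untagged or wild-type worms to compare it with. Whole animals were used, so strong binding in few cells and weak binding in many cannot be told apart, and no list says in which tissue a site was bound.

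Heterochronic genes set which larval stage a cell behaves as. In the early larva the transcription factor LIN-14, the RNA-binding protein LIN-28 and the zinc-finger factor HBL-1 hold cells in early fates. MicroRNAs of the lin-4 and let-7 families, loaded into Argonautes such as ALG-1, then repress these genes and the RNA-binding protein gene lin-41, and release of the zinc-finger factor LIN-29 drives the hypodermis to its adult form. LIN-46 acts downstream of LIN-28 and opposes the early fates, LIN-42 is the worm relative of the Period proteins and is expressed in a cycle with each moult, and PUF-9 is a Pumilio-family RNA-binding protein that takes part with let-7 in the repression of hbl-1.

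A promoter window is here the stretch between 1000 bp before and 200 bp after the annotated 5′ end of a gene, and a peak is placed by its summit. The thresholded list holds 2720 peaks, which are the 2720 of highest signal among the 30000 relaxed peaks called on the pooled replicates. The pooled relaxed list is labelled as peaks and background, so a summit found only there is not shown to be a binding site. The relaxed list of replicate 1 holds 26801 peaks and that of replicate 2 holds 30000. Signal is the authors' own value for each peak. No label or listing states its scale, so ranks by signal are set side by side between lists and signal values only within one. The weakest peak inside the threshold has a signal of 27.52 and the strongest outside it 27.51, and no peak at the 9 genes lies between rank 2493 and rank 2965. Read depth is unknown, and the SD of a single peak cannot be given from 2 replicates, whose values are therefore both printed.

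The 9 genes held 9 thresholded summits within their bodies and the 5 kb upstream of them, at puf-9, lin-14, lin-41, lin-42 and alg-1. In the promoter window 1 of the 9 genes had a thresholded summit, puf-9, where 10.5% of all protein-coding genes had one. In an intron, outside every exon and outside the promoter window, 2 of 9 had one, lin-14 and lin-42, against 2.17% of all genes. Between 1001 and 5000 bp upstream 3 of 9 had one, lin-14, lin-41 and alg-1, against 11.6%. Counted over these 3 places together, 5 of 9 genes had a thresholded summit against 21.7%. These shares are set beside the members' counts as a background and support nothing, because the same peaks helped to choose the genes. The map of summits by distance from the 5′ end shows the red points of puf-9 at the promoter and those of the other 4 genes outside it.

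**Figure D1:**
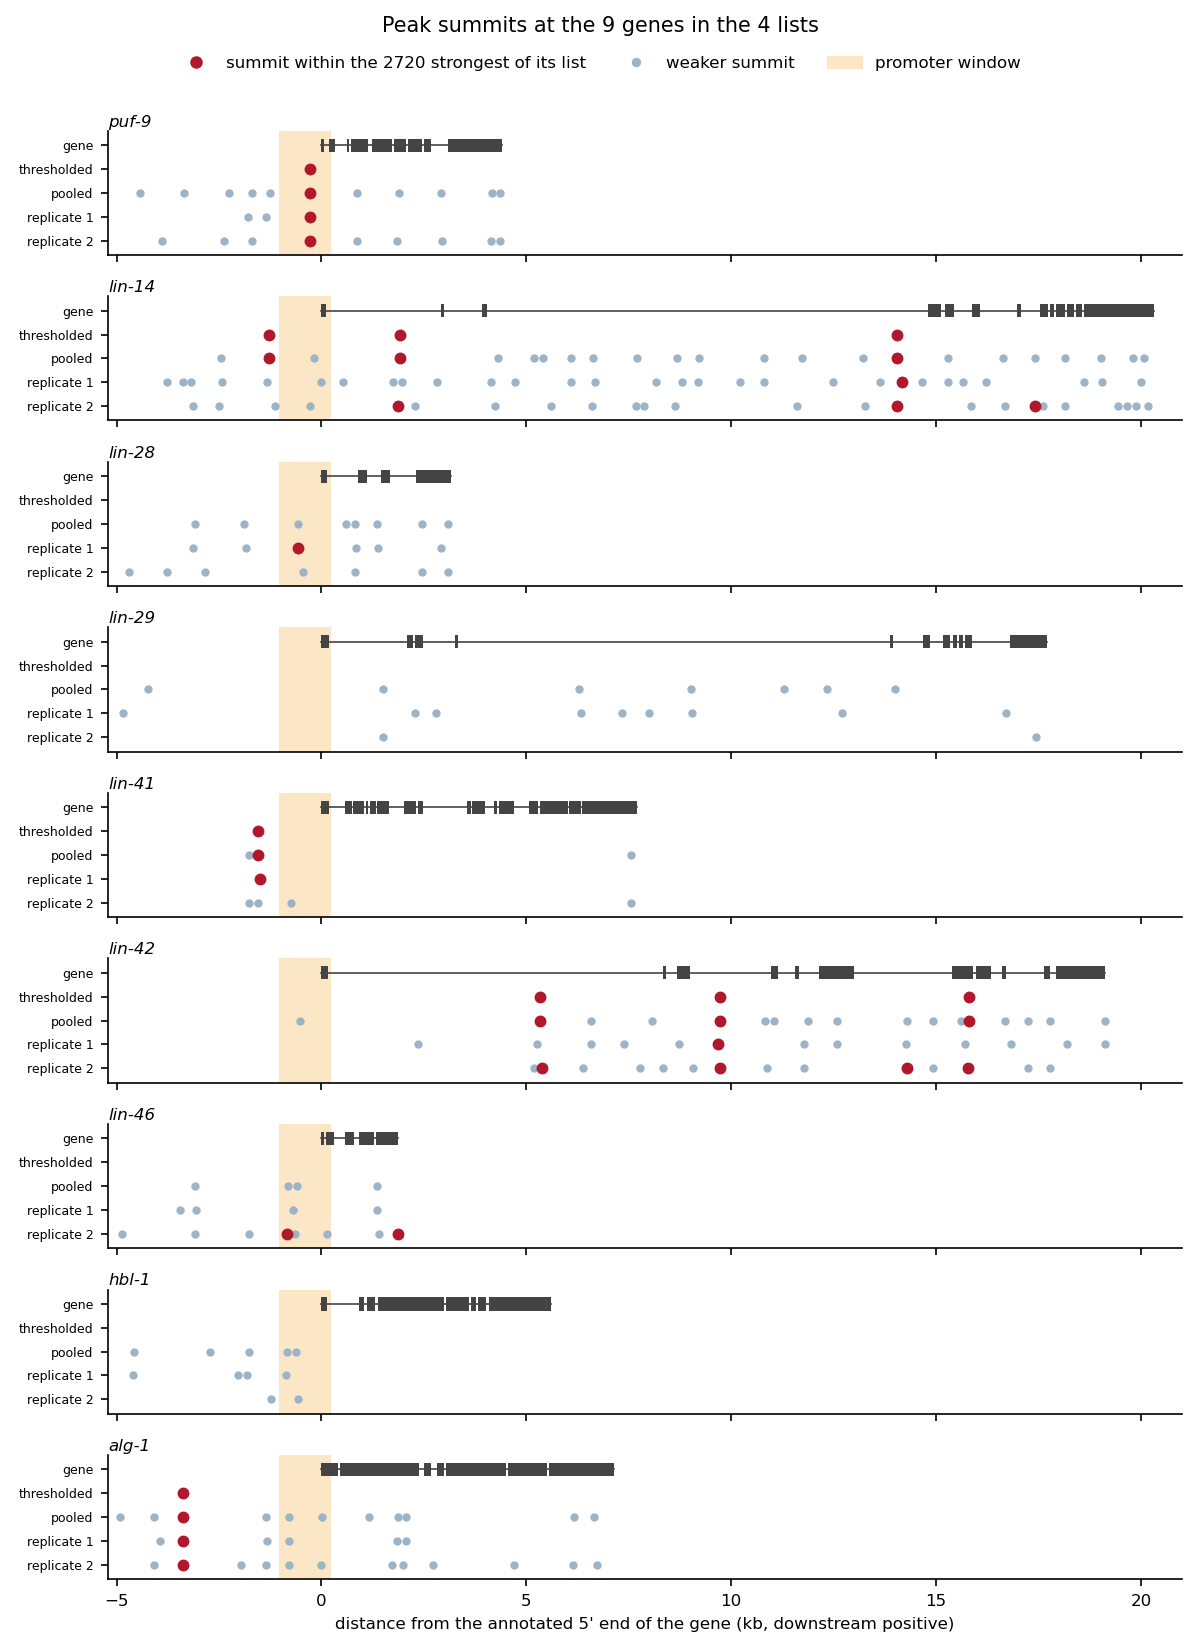
Summits at the 9 genes in the thresholded, pooled and 2 replicate lists, by distance in kb from the annotated 5′ end (x axis), with exons drawn as blocks in the top row of each panel. Red points are within the 2720 strongest peaks of their list, pale points are weaker, the shaded band is the promoter window, and puf-9 has its red point there in all 4 lists.

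The strongest peak at these genes by far was that of puf-9. Its summit lay 276 bp upstream of the 5′ end of puf-9 (WBGene00004245, X:5841592-5845987, plus strand, build ce11), in sequence that no protein-coding gene covers. The peak spans X:5841214-5841452, is 239 bp wide, and has a signal of 160.1 and rank 11 in the thresholded list. In replicate 1 it had a signal of 84.5 and rank 26, and in replicate 2 a signal of 75.0 and rank 18. Both replicates thus placed it among their very strongest peaks, and the summits of the replicates lay 0 and 6 bp from the pooled one. On the X chromosome it was the strongest of 503 thresholded peaks. By its strongest pooled promoter peak puf-9 stood at place 9 among 19973 protein-coding genes, the top 0.0451%. Its summit lies in 2 annotated noncoding RNA genes on opposite strands, W06B11.7 on the minus and W06B11.9 on the plus strand, and their part in the peak was not tested. The control library was not analysed here, so its level at this site and at the other summits in noncoding genes was not examined.

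The sequence of the whole puf-9 peak is shown because it is the strongest site of the set, read from the RefSeq genome of build ce11 on the plus strand, with the summit at base 103. Capitals mark, from left to right, the run TCTCTC, which is GAGAGA on the other strand, then the run CGTCTC, and last TGACG with GACGCA overlapping it.
puf-9 -276: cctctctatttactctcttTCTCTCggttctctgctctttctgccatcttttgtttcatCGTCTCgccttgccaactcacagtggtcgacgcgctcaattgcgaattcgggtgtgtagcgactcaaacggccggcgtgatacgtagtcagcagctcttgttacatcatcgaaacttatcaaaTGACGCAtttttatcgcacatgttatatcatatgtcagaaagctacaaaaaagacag
The TCTCTC run starts 83 bp before the summit and the CGTCTC run 43 bp before it, while TGACG and GACGCA start 80 and 81 bp after it. Only the CGTCTC run falls within 50 bp of the summit. CGTCTC, on either strand, is present within 50 bp of 19.0% of the 2720 thresholded summits and in 2.85% of windows of the same length centred 300 bp to each side.

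The genes whose promoter peak was nearest to that of puf-9 in its ranks over the thresholded, replicate 1 and replicate 2 lists were K11H12.8 and rpl-15, which share 1 peak. Likeness was the Euclidean distance of log2 ranks over these 3 lists among 2076 genes with a promoter peak matched in both replicates. The shared peak of K11H12.8 and the ribosomal protein gene rpl-15 ranked 9, 23 and 17, at a distance of 0.349. pqn-92 followed, with ranks 14, 38 and 12 and a distance of 0.873. The ribosomal protein gene rps-12 and ska-3 share a peak with ranks 16, 37 and 25, at a distance of 0.881. The thresholded and the replicate ranks come from the same reads, so the lists are not separate measurements.

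The gene that puf-9 is known to help repress, hbl-1 (WBGene00001824, X:5822142-5827755, plus strand), is its neighbour on the X chromosome. The 5′ ends of both genes lie 19450 bp apart, and 13837 bp separate the 3′ end of hbl-1 from the 5′ end of puf-9, with acp-5, F13D11.4 and dct-11 between them. From 5 kb upstream of hbl-1 to the end of puf-9, a stretch of 28846 bp, the only thresholded summit is the puf-9 one, while the pooled list has 22 summits, replicate 1 has 10 and replicate 2 has 13. At hbl-1 itself the strongest pooled peak lay 831 bp upstream with a signal of 11.6 and rank 9249. The matching peak of replicate 1 ranked 3109. In replicate 2 the overlapping peak, of rank 11414, had its summit 258 bp away and nearer to a second, weaker pooled summit at 629 bp, so its rank need not belong to the same site.

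lin-14 (WBGene00003003, X:11465560-11485871, plus strand) encodes a transcription factor of the early larval fates and had 3 thresholded summits, none of them in its promoter window. The first lay 1269 bp upstream of the 5′ end (X:11464133-11464448), with a signal of 30.8 and rank 2235, a signal of 12.2 and rank 3649 in replicate 1, and 11.6 and rank 4047 in replicate 2. Both replicates thus placed it outside their 2720 strongest, and their summits lay 57 and 148 bp away on either side of the pooled one. The second lay 1928 bp into the gene (X:11467330-11467645), in an intron of 2818 bp, at the noncoding RNA gene T25C12.7. It had a signal of 28.9 and rank 2493, with 7.32 and rank 7462 in replicate 1, and 19.4 and rank 1559 in replicate 2. A second replicate 1 peak overlaps the same pooled peak, with its summit 1750 bp in, a signal of 12.9 and rank 3337. Replicate 2 thus placed the site within its 2720 strongest peaks and replicate 1 did not. The third lay 14045 bp in (X:11479447-11479762), in an intron of 10754 bp and 756 bp upstream of the 5′ end of the shorter annotated transcript. It had a signal of 29.8 and rank 2361, 16.8 and rank 2140 in replicate 1, and 15.9 and rank 2342 in replicate 2, the pair of replicate ranks with the smallest ratio among the 9. At the promoter window of lin-14 the pooled list had a summit 190 bp upstream of the 5′ end with a signal of 12.2 and rank 8631, within 200 bp of the noncoding genes T25C12.8 and T25C12.9.

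lin-42 (WBGene00018572, II:1233236-1252359, minus strand), the Period relative, also had 3 thresholded summits, all inside the gene. The one 5341 bp in (II:1246860-1247175) lies in an intron of 8173 bp, at the noncoding RNA genes F47F6.13 and F47F6.15. Its signal was 42.1 at rank 1140, with 13.5 and rank 3126 in replicate 1 and 31.6 and rank 460 in replicate 2. Replicate 2 therefore ranked it high and replicate 1 below its 2720 strongest. The one 9723 bp in (II:1242478-1242793) lies in an intron of 1979 bp, and had a signal of 40.3 at rank 1261, with 17.9 and rank 1884 in replicate 1 and 23.02 and rank 1066 in replicate 2. The one 15810 bp in (II:1236391-1236706) lies 420 bp inside the first exon of a shorter isoform, in a part that is not translated there. The same base is intronic in 3 of the 7 annotated coding isoforms and outside the other 3. It had a signal of 34.1 at rank 1802, with 13.9 and rank 2983 in replicate 1 and 17.7 and rank 1915 in replicate 2. The promoter window at the distal 5′ end of lin-42 had a pooled summit of signal 5.84 at rank 21567 that no peak of either replicate matched.

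alg-1 (WBGene00000105, X:13949110-13956261, plus strand) encodes an Argonaute that carries the timing microRNAs. Its thresholded summit lay 3386 bp upstream (X:13945566-13945881), at K02B9.6, a noncoding RNA gene name that is annotated on both strands. The signal was 45.05 at rank 970, with 16.03 and rank 2325 in replicate 1 and 26.6 and rank 737 in replicate 2. The summits of the replicates lay 3 and 4 bp from the pooled one, so the position was the same to within a few bases. In the promoter window of alg-1 the strongest pooled summit lay 801 bp upstream with a signal of 17.7 and rank 5291, and ranked 5417 and 5500 in the replicates. Inside the gene an exonic pooled summit 1866 bp in, 286 bp upstream of another annotated transcript start, had a signal of 22.2 and rank 3830.

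The windows of 101 bp around 4 of these summits are shown as examples of intronic and upstream sites that differ in the motifs they hold. Each is read from RefSeq's genome of build ce11 on the strand of its gene, with the summit at base 51.
lin-42 +5341 (II:1246968-1247068, minus): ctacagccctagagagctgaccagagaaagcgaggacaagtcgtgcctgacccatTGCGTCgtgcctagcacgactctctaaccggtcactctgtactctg
lin-42 +9723 (II:1242586-1242686, minus): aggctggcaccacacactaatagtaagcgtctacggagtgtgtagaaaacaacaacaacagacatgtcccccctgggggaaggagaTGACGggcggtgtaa
alg-1 -3386 (X:13945674-13945774, plus): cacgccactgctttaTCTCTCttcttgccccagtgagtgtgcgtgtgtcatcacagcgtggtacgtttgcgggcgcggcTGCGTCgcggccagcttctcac
lin-14 -1269 (X:11464241-11464341, plus): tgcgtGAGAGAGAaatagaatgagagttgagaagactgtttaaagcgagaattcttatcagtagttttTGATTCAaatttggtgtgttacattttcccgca
Capitals mark TGCGTC, the reverse complement of GACGCA, in lin-42 at 5341 bp and in alg-1. They mark TGACG in lin-42 at 9723 bp, TCTCTC in alg-1, and overlapping GAGAGA runs followed by TGATTCA in lin-14.

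Each of 10 motifs was searched on both strands within 50 bp of the summits, and the shares that follow are of the 2720 thresholded summits and of the flanking windows, in that order. GAGAGA (27.3% and 6.07%) was present at 2 of the 9 summits, lin-14 upstream and alg-1. GACGCA (16.5% and 1.86%) was present at 2, lin-42 at 5341 bp and alg-1. CGTCTC was present at 2, puf-9 and the lin-14 summit 1928 bp in. TGACG (19.6% and 10.2%) was present at 1, lin-42 at 9723 bp, and TGANTCA (7.24% and 3.16%), the form of an AP-1 site, at 1, lin-14 upstream. AGGTCA (3.71% and 2.21%), the half-site of many nuclear receptors, and AAAGGTCA (0.735% and 0.257%), the monomer site of the mammalian NR4A receptors, were at 0 of the 9. CCCTC (16.3% and 6.42%), CACGTG (3.86% and 1.67%) and CTCCGCC (2.87% and 0.938%) were at 0 as well. TGACG and GACGCA can overlap, so their counts are not separate. None of the 10 motifs was present at 3 of the 9 summits, the lin-14 summit 14045 bp in, the lin-41 one and the lin-42 one 15810 bp in, while 33.7% of all thresholded summits had none.

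Base composition varied widely among the 9 windows. The GC content was 49.1% ± 9.18 (SD, n = 9 windows), against 45.3% ± 7.88 over the 2720 thresholded summits and 34.9% in the flanks. It was highest at alg-1, with 61.4%, a value that 2.17% of all thresholded summits reached, and stood at 56.4% at puf-9 and at the lin-42 summit 5341 bp in. The lowest was 34.7%, at the lin-14 summit 14045 bp in, so the members span AT-rich and GC-rich sites.

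The replicates agreed to differing degrees at these peaks, as the plot of their ranks shows. Of the 9 thresholded peaks, 4 were within the 2720 strongest of both replicates, a share of 44.4%, where 1447 of 2681 thresholded peaks matched in both replicates were, 54.0%. The 4 were those of puf-9, alg-1, lin-42 at 9723 bp and lin-14 at 14045 bp. The median ratio of the larger to the smaller replicate rank was 1.77 over the 9 and 2.33 over all matched thresholded peaks. The median shift of the summit from the pooled one was 48 bp in replicate 1 and 8 bp in replicate 2 for the 9, and 16 and 14 bp for all.

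**Figure D2:**
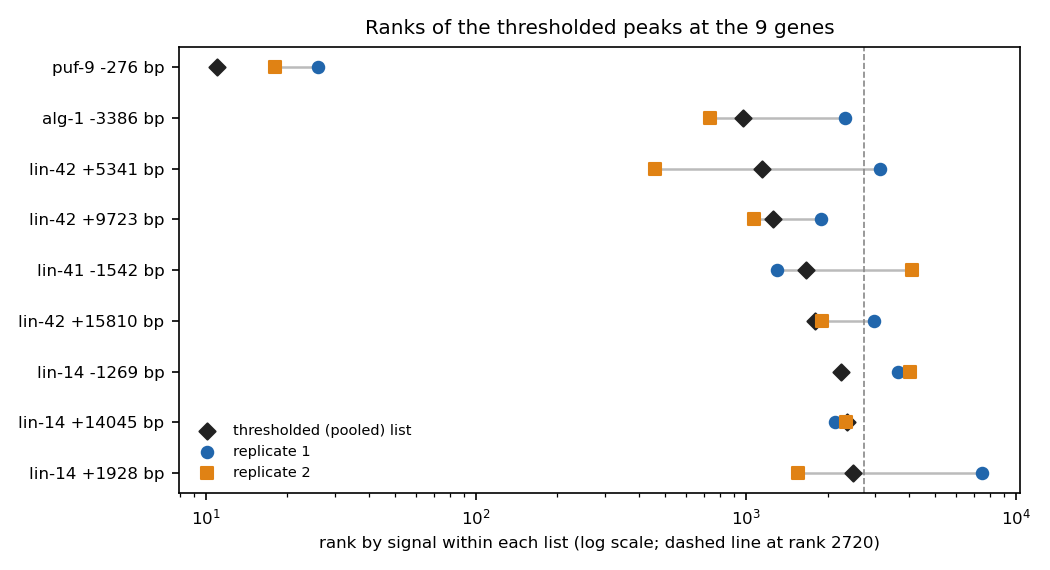
Rank by signal (x axis, log scale) of the 9 thresholded peaks in the thresholded list and in each replicate, 1 row per peak named by gene and distance of its summit from the 5′ end; a grey line joins the replicates. The puf-9 ranks of 11, 26 and 18 lie apart from the other peaks, whose lowest replicate rank is 460, and the dashed line marks rank 2720.

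lin-41 (WBGene00003026, I:9334800-9342496, minus strand), which encodes the RNA-binding protein that let-7 represses, had 1 thresholded summit 1542 bp upstream of its 5′ end (I:9343880-9344195). The signal was 35.6 at rank 1670, with 21.5 and rank 1299 in replicate 1 and 11.5 and rank 4099 in replicate 2. It is thus a peak that replicate 1 ranked among its strongest and replicate 2 did not. The pooled list had no summit in the lin-41 promoter window. Over the gene and 5 kb upstream it had 3, the fewest of the 9 genes.

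No thresholded summit was found at lin-28, lin-46, hbl-1 or lin-29, and their strongest pooled peaks fall into near misses and weak ones. lin-28 (WBGene00003014, I:8407630-8410804, minus strand) had an intronic summit 816 bp in, 68 bp upstream of the start of its other isoform, with a signal of 24.7 and rank 3251, and ranks of 5134 and 2734 in the replicates. It also had a promoter summit 570 bp upstream with a signal of 21.6 and rank 3990, which ranked 2292 in replicate 1 and 3809 in replicate 2. Both carry the highest −log10 q-value of the pooled list, 3.91, as 4093 pooled peaks do.

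lin-46 (WBGene00003031, V:12968855-12970730, plus strand) had a promoter summit 810 bp upstream with a signal of 25.6 and rank 3064, and the same summit lies in the promoter windows of R186.3 and R186.8. It ranked 2157 in replicate 2. The overlapping peak of replicate 1, of rank 3483, had its summit at 692 bp, between this one and a weaker pooled one at 602 bp. A second one 3090 bp upstream, inside the chemoreceptor gene srd-35, had a signal of 21.3 and rank 4061. lin-29 (WBGene00003015, II:11917642-11935343, minus strand), the factor at the end of the pathway, had no summit in its promoter window in any of the 4 lists. That window lies at its distal 5′ end. At another annotated 5′ end, 13905 bp in, a pooled summit lay 86 bp downstream, with a signal of 6.36 and rank 19695. The strongest pooled peak of lin-29 lay in an intron 6297 bp in, at the noncoding gene Y17G7A.4, with a signal of 11.4 and rank 9420. It ranked 5821 in replicate 1 and had no match in replicate 2.

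With the threshold lifted, pooled summits were found at all 9 genes. The pooled list includes background, so these counts are not counts of binding sites. The lin-42 promoter summit, for example, had a −log10 q-value of 0.473 and no match in either replicate. Of the 9, 7 had a pooled summit in the promoter window, all but lin-29 and lin-41, where 41.0% of protein-coding genes had one, and 9 of 9 had one in any of the 3 places, where 68.3% had one. Among the 2720 strongest peaks of replicate 1, 2 of 9 genes had a promoter summit, puf-9 and lin-28, against 9.99% of genes, and 6 had one in any place against 20.9%. In replicate 2 they were 2, puf-9 and lin-46, against 9.91%, and 5 in any place against 20.8%. puf-9 was the only one of the 9 with a promoter summit among the strongest peaks of both replicates.

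**Figure D3:**
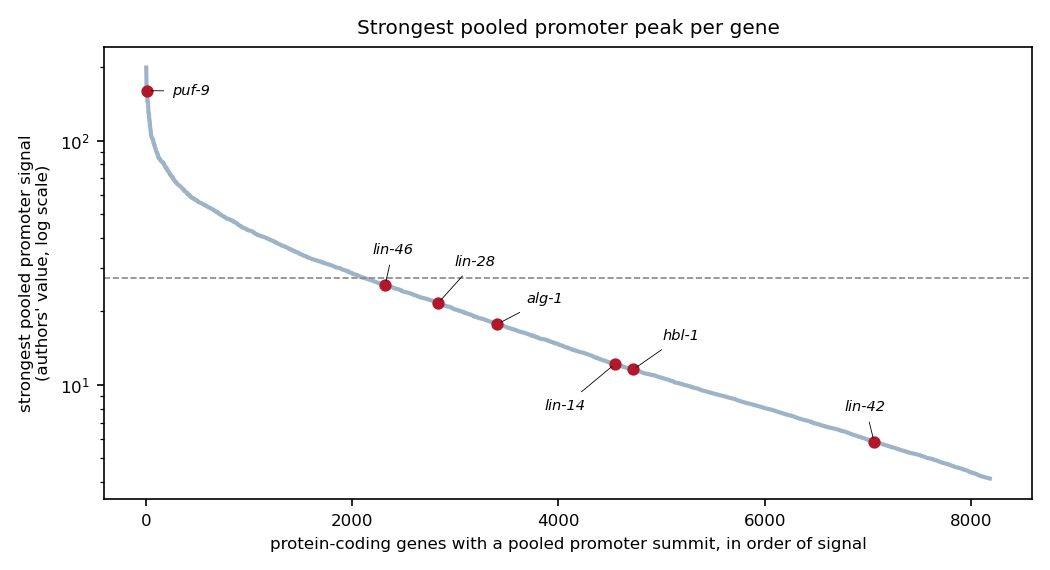
Strongest pooled promoter signal (y axis, log scale, the authors' value) of the 8184 protein-coding genes that have a pooled promoter summit, in descending order (x axis), with 7 of the 9 genes marked; lin-29 and lin-41 have none. The dashed line is the weakest thresholded signal, 27.52, and puf-9, at 160.1, is the only marked gene above it.

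In the order of strongest pooled promoter signals over all 19973 genes, puf-9 was followed by lin-46 at place 2316 (the top 11.6%), lin-28 at 2832 (14.2%) and alg-1 at 3406 (17.1%). lin-14 at 4550 (22.8%) and hbl-1 at 4727 (23.7%) were next, and lin-42 stood at 7062 (35.4%). The median over the 8184 genes with a pooled promoter summit was 14.2. lin-46, lin-28 and alg-1 lay above it, lin-14, hbl-1 and lin-42 below it. The signals of lin-14 and hbl-1, 12.2 and 11.6, are close in this order, and without an error for a single pooled value their order is not resolved.

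**Figure D4:**
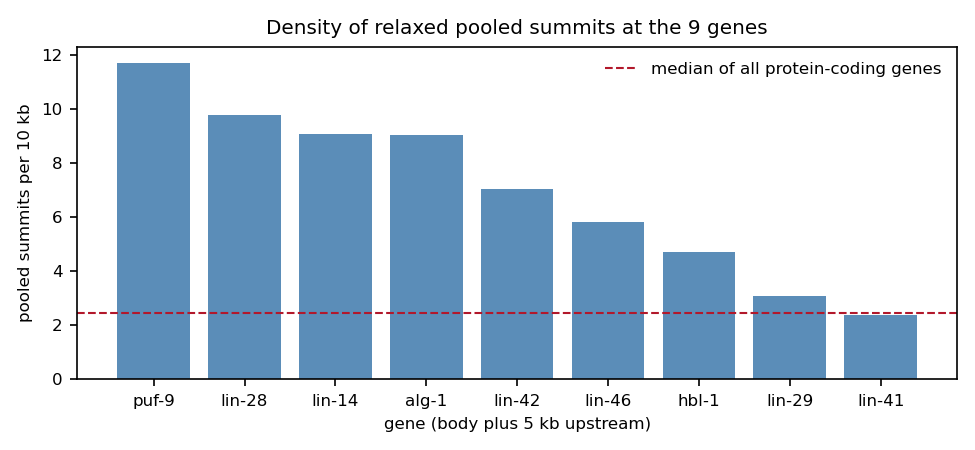
Pooled relaxed summits per 10 kb (y axis) over the body of each gene and 5 kb upstream, 1 bar per gene; the dashed line is the median of all protein-coding genes, 2.44. The bars run from 11.7 at puf-9 to 2.36 at lin-41, and lin-41 alone lies below the line.

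Per length, relaxed summits were denser than the median of all genes at each of the 9 except lin-41. Background calls are included in these densities, for the 9 and for all genes. Over the gene and 5 kb upstream, puf-9 had 11.7 pooled summits per 10 kb, a density that 1.41% of protein-coding genes reach. lin-28 had 9.79, lin-14 9.09, alg-1 9.05, lin-42 7.05, lin-46 5.82, hbl-1 4.71, lin-29 3.08 and lin-41 2.36. The share of genes as dense was 3.3% for lin-28, 4.6% for lin-14, 4.7% for alg-1 and 10.7% for lin-42. For lin-46, hbl-1, lin-29 and lin-41 it was 17.2%, 25.6%, 42.0% and 50.6%. The median of the 9 was 7.05 and that of all genes 2.44. The number of relaxed summits differed between replicates, with 3 and 9 at puf-9, 9 and 2 at lin-29 and 29 and 24 at lin-14.

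Introns of lin-14 and lin-42 held all 4 intronic thresholded summits of the set. The introns of the 9 genes add up to 54490 bp and held 7.34 thresholded summits per 100 kb, against 1.63 over the introns of all protein-coding genes. Without lin-14 and lin-42 the introns of the other 7 genes, 22871 bp, held 0. In the pooled list the densities were 66.1 per 100 kb for the 9 genes, 43.7 without those 2 and 29.1 for all genes.

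Annotated noncoding RNA genes lay at the summit of 4 of the 9 thresholded peaks, at puf-9, alg-1, lin-14 and lin-42, a share of 44.4%. Over the thresholded list 199 of 2720 summits, 7.32%, lay in a gene of this class, and over the 27280 weaker pooled peaks 2.52%. Which transcript a peak belongs to cannot be told apart from its position. The puf-9 peak was the only one of the 9 narrower than the usual 316 bp. Over the thresholded list 7.54% of peaks were narrower, among them 21 of the 25 strongest.

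Beyond the 9 genes, a list of 22 other heterochronic genes was examined. It was chosen with earlier results of these data known, so the shares beside its counts are a background and support nothing. The list held 16 protein-coding genes, 5 microRNA genes and the noncoding RNA gene lep-5. A thresholded summit lay in the promoter window of 5, ain-1, nhl-2, mab-10, mir-48 and mir-241. It lay in an intron of 5 and in the upstream stretch of 5, and 11 of 22 had one in at least 1 place. Among the 16 protein-coding genes the counts were 3 in a promoter window, 5 in an intron, 1 in the upstream stretch and 7 in any place. The shares over all protein-coding genes were 10.5%, 2.17%, 11.6% and 21.7%, in the same order. Of the 5 microRNA genes 2 had a promoter summit, where 9.96% of 261 annotated microRNA genes had one, and 4 had one in any place, where 24.5% had one. Pooled promoter summits were found at 19 of the 22, where 41.0% of all protein-coding genes had one. The 22 include microRNA genes and lep-5, for whose classes no pooled share was computed.

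The microRNA genes with a thresholded summit were let-7, mir-48, mir-84 and mir-241, all of the let-7 family, and lin-4 had none. Their mature sequences from RefSeq are shown because they share the seed, bases 2 to 8, in capitals.
let-7: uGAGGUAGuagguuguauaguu
mir-48: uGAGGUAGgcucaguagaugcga
mir-84: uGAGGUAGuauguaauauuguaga
mir-241: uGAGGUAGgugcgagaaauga
The let-7 summit lay 1881 bp upstream of the annotated gene (X:14747044-14747359), with a signal of 77.0 and rank 193, and ranked 313 and 143 in the replicates. The same summit lies in the promoter window of the protein-coding gene C05G5.2. Both replicates thus placed it higher than any thresholded peak of the 9 genes other than that of puf-9. The summit closest to mir-48 lay 257 bp upstream (V:14364608-14364923), with a signal of 41.7 and rank 1160, at ranks 671 and 2174. Upstream of mir-241, 3 summits at 356, 617 and 2143 bp had signals of 32.7, 28.7 and 53.1. The same summits lie in the 5 kb upstream of mir-48. The one at 2143 bp ranked 429 and 766 in the replicates. The one at 356 bp lies in the noncoding RNA gene F56A12.8. It ranked 936 in replicate 2, but the overlapping replicate 1 peak lay 267 bp away. That peak, of rank 1156, was nearer to the summit at 617 bp. For the summit at 617 bp the replicate 2 peak, of rank 10634, lay 194 bp away and nearer to another pooled summit. The mir-84 summit lay 2333 bp upstream (X:16024653-16024968), with a signal of 51.3 and rank 705, at ranks 1427 and 559.

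Of the protein partners of the microRNAs, nhl-2, a TRIM-NHL cofactor of the silencing complex, had the strongest summit, 842 bp upstream (III:4899848-4900019), with a signal of 97.3 and rank 78, at ranks 162 and 67. It lies in the noncoding gene F26F4.14 and also in the promoter window of tag-340. ain-1, the GW182-type partner of ALG-1, had a promoter summit 977 bp upstream with a signal of 76.2 and rank 202, at ranks 175 and 246, and a weaker one 775 bp upstream at rank 1533. Its relative ain-2 had an intronic summit of signal 30.8 at rank 2231, at ranks 4296 and 1239.

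The other listed genes with a thresholded summit were daf-12, mab-10, sea-2 and kin-20. daf-12, the nuclear receptor that controls let-7 family genes, had an intronic summit of signal 32.3 at rank 2024, at ranks 2233 and 2864. mab-10, the cofactor of LIN-29, had a promoter summit 238 bp upstream at rank 1465 and an intronic one at rank 1818. They ranked 1351 and 2859 in replicate 1, and 3507 and 2430 in replicate 2. The intronic one lies in the noncoding RNA genes R166.8 and R166.9. sea-2 had 3 intronic summits, the strongest with a signal of 42.6 at rank 1116, at ranks 1516 and 816. Its summits 3932 and 7238 bp in ranked 898 and 2034 in replicate 1, but 8047 and 6755 in replicate 2. kin-20, a casein kinase relative that acts with the Period protein LIN-42, had intronic summits with signals of 50.1 and 41.4. The stronger lies in the noncoding RNA gene F46F2.12, and the weaker lies within 200 bp of F46F2.9. An upstream summit of kin-20 had a signal of 36.4. For that one the overlapping replicate 2 peak, of rank 1163, lay 248 bp away and nearer to another pooled summit. The remaining 11 genes of the list, among them blmp-1, dre-1, nhr-23 and nhr-25, had none.

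In the Pumilio family without puf-9, 10 genes were examined, a list also chosen with earlier results of these data known. A thresholded promoter summit was found at 1, puf-12, 186 bp upstream, with a signal of 45.7 and rank 941, at ranks 1649 and 867, in the noncoding gene ZK945.13. The promoter window of pas-7 holds the same summit. Upstream summits were found at puf-8, with a signal of 33.4 at rank 1878, in the promoter window of cul-4, and at puf-4, annotated as a pseudogene, with a signal of 29.8 at rank 2360 and no match in replicate 1, in the promoter window of slmp-1. Pooled promoter summits were found at 2 of the 10. Of all protein-coding genes, 10.5% had a thresholded promoter summit, 11.6% an upstream one and 41.0% a pooled promoter one. The rank of puf-12 was thus 941 beside the 11 of puf-9 in the same list.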

How the data were processed

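ChIP-seq peak lists of 1 group with 2 biological replicates were used. Per the deposited text listings, the authors called relaxed peaks for each replicate and for both together, and kept those that passed a cutoff on the irreproducible discovery rate. Lists in build ce10, the control and the signal tracks were not used here. The aligner, peak caller and settings were not given in the sources used here. Every line of the authors' lists gives a signal value for ranking and the place of the summit. The deposited −log10 q-value reaches its ceiling in 4093 pooled peaks, so it could not rank them. Signal was used only to rank within a list.

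The 9 genes and the wider lists were chosen with earlier results of these data known. Summits were placed with Ensembl release 115 of WBcel235, the ce11 assembly, and peaks were matched between lists by an overlap of 1 bp, nearest summit first. Let-7 was matched through its WormBase identifier in the RefSeq annotation, and all 22 and 10 genes of the wider lists were found. Named genes were the 9 genes, list genes with a thresholded summit, genes sharing or lying within 200 bp of a summit, and the 5 genes nearest to puf-9 in rank. Genes between hbl-1 and puf-9, other genes whose promoter window holds a summit of the wider lists and listed genes without a summit were named after their values were seen. Windows were tested on simulated peaks. Calculations used Python 3.11.15, numpy 2.4.6 and pandas 2.3.3, with plots in matplotlib 3.10.9. No p-value was computed. Alternatives changed the windows, transcript ends, overlap rule, threshold, replicate and, for the puf-9 rank, the intervals counted.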

Additional observations from a re-analysis of the deposited data

How the results depend on the processing

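Of 46 alternative values, 26 stayed within 1.5 times the reported one, and puf-9 was counted in all 8 alternatives for the promoter window. The count of 1 among the 9 genes with a promoter summit became 3 with 2000 bp upstream (lin-14 and lin-41 added). It became 2 with the 5′ ends of all coding transcripts (lin-14 added) and 7 with all pooled peaks. Of all protein-coding genes, 13.5%, 11.2% and 41.0% had one in these settings. With each replicate alone the count was 2, adding lin-46 in replicate 2 and lin-28 in replicate 1, against 9.91% and 9.99% of all genes. Genes with an upstream summit became 5 within 10 kb, 1 with the stronger 50% of the thresholded peaks, 8 with all pooled peaks, and 1 to 2 with a replicate left out. Genes with an intronic summit became 1 with the stronger 50% and 5 with all pooled peaks, and genes with a summit in any place became 3 and 9. With all pooled peaks 68.3% of all protein-coding genes had one in any place. No share over all genes was computed for the altered upstream and intronic counts or for the any-place count of the stronger 50%. The background of 2097 protein-coding genes became 1212 with the stronger 50% and 8184 with all pooled peaks. The wider heterochronic count of 5 became 3 with 500 bp upstream, 3 with the stronger 50% and 19 with all pooled peaks. The shares of all protein-coding genes there were 8.45%, 6.07% and 41.0%, while the wider list also holds microRNA genes and lep-5. The puf-9 rank of 11 became 18 without replicate 1 and 26 without replicate 2. It became 8 when each distinct interval was counted only 1 time and mitochondrial peaks were left out. Stricter and looser lists differ by their construction; other causes were not tested. Depth is unknown, so a gene without a thresholded summit is not shown to be unbound. No paired analysis was possible because there is 1 group.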

Other observations

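Further from the 5′ ends, between 5 and 10 kb upstream, lin-28 had a thresholded summit at 5527 bp with a signal of 38.2 and rank 1436, which lies in the promoter window of sin-3, and hbl-1 had one at 8922 bp with a signal of 30.4 and rank 2283 that lies in no promoter window.

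Some summits were among the 2720 strongest of replicate 2 and outside the thresholded list. In lin-14 one lay 17404 bp in, with rank 1116. In lin-42 one lay 14287 bp in, with rank 1004, and its pooled counterpart 14282 bp in had a signal of 26.1 and rank 2965. In lin-46 one lay in the last exon, 1861 bp in, with rank 1689, and this summit also lies in the promoter window of pnn-1. Depth of the libraries was not measured, and its part in these differences was not tested.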
